A study of Mus musculus with 10 samples.

Results

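The genes described here are interferon-stimulated genes other than the Ifit family, 51 genes named by symbol for their known response to interferon and not for any value measured here. Of the 51, 50 had a row among the 28185 genes listed for the series, while Cmpk2 was not analysed here. A mean of at least 10 normalized counts over all libraries was reached by 49 members, which were tested, and Cxcl9 fell under it. The RNA came from Ly6G+ cells of C57Bl/6J male mice aged 12 to 16 weeks, 3 days after ligation of the left coronary artery (LCA), a model of myocardial infarction (MI). Cells were taken from the infarcted left ventricle below the ligature (MI) or from blood (Blood) of untreated animals. The MI + MSC and Blood + MSC groups came from animals given syngeneic mouse mesenchymal stromal cells (MSC) under the skin at 3 sites, with 1000000 cells at each, soon after the ligation. All 4 groups therefore carried the infarct, and none was a sham or healthy control. Cells were enriched on anti-Ly6G beads, Ly6G being a surface marker of mouse neutrophils, and sequenced in bulk after depletion of ribosomal RNA. There were 3 MI, 3 MI + MSC, 2 Blood and 2 Blood + MSC libraries, named below by the number in their label. Their titles carry a code for the group and name no batch.

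Interferons bind receptors that signal through the JAK kinases to transcription factors, among them STAT2 and IRF9, which switch on a large set of genes. Type I and type III interferons act mainly through the interferon-stimulated response element (ISRE), whereas interferon gamma acts mainly through the gamma-activated site (GAS). The products detect foreign nucleic acid, block viral replication, tag proteins with ISG15, restrict intracellular pathogens or attract T cells. In the infarcted heart, neutrophils and monocytes expressing such genes are known both in the tissue and in the circulation.

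The deposited values are normalized counts, which are read counts divided by a size factor for each library. Recovered reads per library ranged from 148594 in MI 13 to 8602711 in Blood + MSC 24. MI 13 and Blood 21 were the shallowest libraries, with 1 read worth 8.40 and 7.07 normalized counts. The members had a median of 9 reads in MI 13, 37.5 in Blood 21 and 916 in Blood + MSC 24. Of the neutrophil markers, Ly6g itself was low in the heart, between 4.75 and 26.9 normalized counts over the 6 cardiac libraries, whereas Blood had 198 and 645 and Blood + MSC had 57.0 and 41.2. All 8 cardiomyocyte markers passed the test as higher in MI than in Blood, and their summed level was at least 3138 in every cardiac library and at most 63.6 in any from blood. Reads of related members can be exchanged, as in the Oas, Gbp, Slfn, Ifi200, Trim30 and Phf11 families, and 7 of the 50 members shared between 1.07% and 26.6% of their exon bases with another gene on the same strand, so their single values are uncertain to that extent.

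RefSeq promoters (assembly GRCm38.p6) were matched for 38 of the 51 members. In the 250 bases before the start site, ISRE letters (GAAANNGAAA, either strand, overlapping matches allowed) occurred in 16 of these 38 members, or 42.1%, against 3.46% of the 27025 genes with a promoter. GAS letters (TTCCNGGAA, which read the same on both strands) occurred in 2 members, or 5.26%, against 1.09% of all genes. Of the 7 immunity-related GTPases and guanylate-binding proteins, 6 held the ISRE letters. The following windows were chosen among members with a match that are named in the comparisons below. Slfn4, Slfn1, Samd9l and Isg20, also named there, had a promoter without the ISRE letters. Of the 3 nucleic acid sensors and kinases with a promoter, 0 held them. Each window runs 5′ to 3′ on the strand of its gene, with the ISRE letters in capitals and up to 20 bases of flank.
Isg15, chr4:156200855-156200916, minus strand: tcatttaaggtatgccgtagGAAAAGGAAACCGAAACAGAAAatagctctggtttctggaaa
Rsad2, chr12:26456543-26456592, minus strand: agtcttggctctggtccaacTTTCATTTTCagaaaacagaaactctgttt
Oas3, chr5:120777705-120777754, minus strand: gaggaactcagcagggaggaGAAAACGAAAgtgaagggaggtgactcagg
Igtp, chr11:58199502-58199551, plus strand: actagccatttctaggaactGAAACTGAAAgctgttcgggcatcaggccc
Irgm1, chr11:48871421-48871470, minus strand: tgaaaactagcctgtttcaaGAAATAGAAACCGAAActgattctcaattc
Gbp2, chr3:142620584-142620633, plus strand: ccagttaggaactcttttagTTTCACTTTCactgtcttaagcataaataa
Gbp7, chr3:142530263-142530312, plus strand: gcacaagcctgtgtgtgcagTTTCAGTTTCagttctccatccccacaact
Bst2, chr8:71537567-71537622, minus strand: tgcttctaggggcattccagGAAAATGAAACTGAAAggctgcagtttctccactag
Cxcl10, chr5:92349073-92349122, minus strand: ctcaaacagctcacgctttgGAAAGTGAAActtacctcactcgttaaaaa
Several of the windows hold matches that overlap, with 3 in Isg15 and 2 each in Irgm1 and Bst2. The match started between 20 and 213 bases before the start site over all 16 genes, with a median of 56. The Cxcl10 match lay farthest away. A match is a description of the letters and not a measured site of binding.

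The summed normalized count of the 50 members amounted to 46045 and 28661 in Blood, and to 15609 and 17690.2 after MSC. In the heart it was 6665, 17718 and 12135 in MI and, with MSC, 12697, 10731 and 10400.1. Both Blood libraries lay above all the others, and MI spread widely while MI + MSC was narrow. As mean ± SD, the sums were 37353 ± 12292 in Blood (n = 2), 16649.6 ± 1472 in Blood + MSC (n = 2), 12173 ± 5527 in MI (n = 3) and 11276 ± 1242 in MI + MSC (n = 3). As a share of the recovered reads, the members took 2.42% in Blood 21 (95% exact binomial interval 2.37 to 2.48) and 0.534% in MI 13 (0.497 to 0.572), the highest and lowest shares. These intervals cover counting error alone.

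A single member, Slfn4 (GRCm39 chr11:83066012-83081042), a Schlafen gene of myeloid cells, made up 39.1% of the sum in Blood 21 and 25.8% in Blood 22. It made up 27.3% and 25.1% in Blood + MSC and between 9.18% and 23.3% in the cardiac libraries. Per kilobase of exon, Slfn4 was the highest member in Blood, Blood + MSC and MI + MSC, and Ifitm3, a membrane protein that blocks viral entry, was the highest in MI. The median level of a member per kilobase was 72.1 normalized counts in Blood, 30.9 in Blood + MSC, 33.7 in MI and 28.4 in MI + MSC. The lowest per kilobase was Cxcl9 in all groups but MI + MSC, where it was Ifi44. Slfn4, Ifitm3, Slfn1, Ifi27l2a and Ly6e filled the first 5 places by the mean over all libraries.

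**Figure D1:**
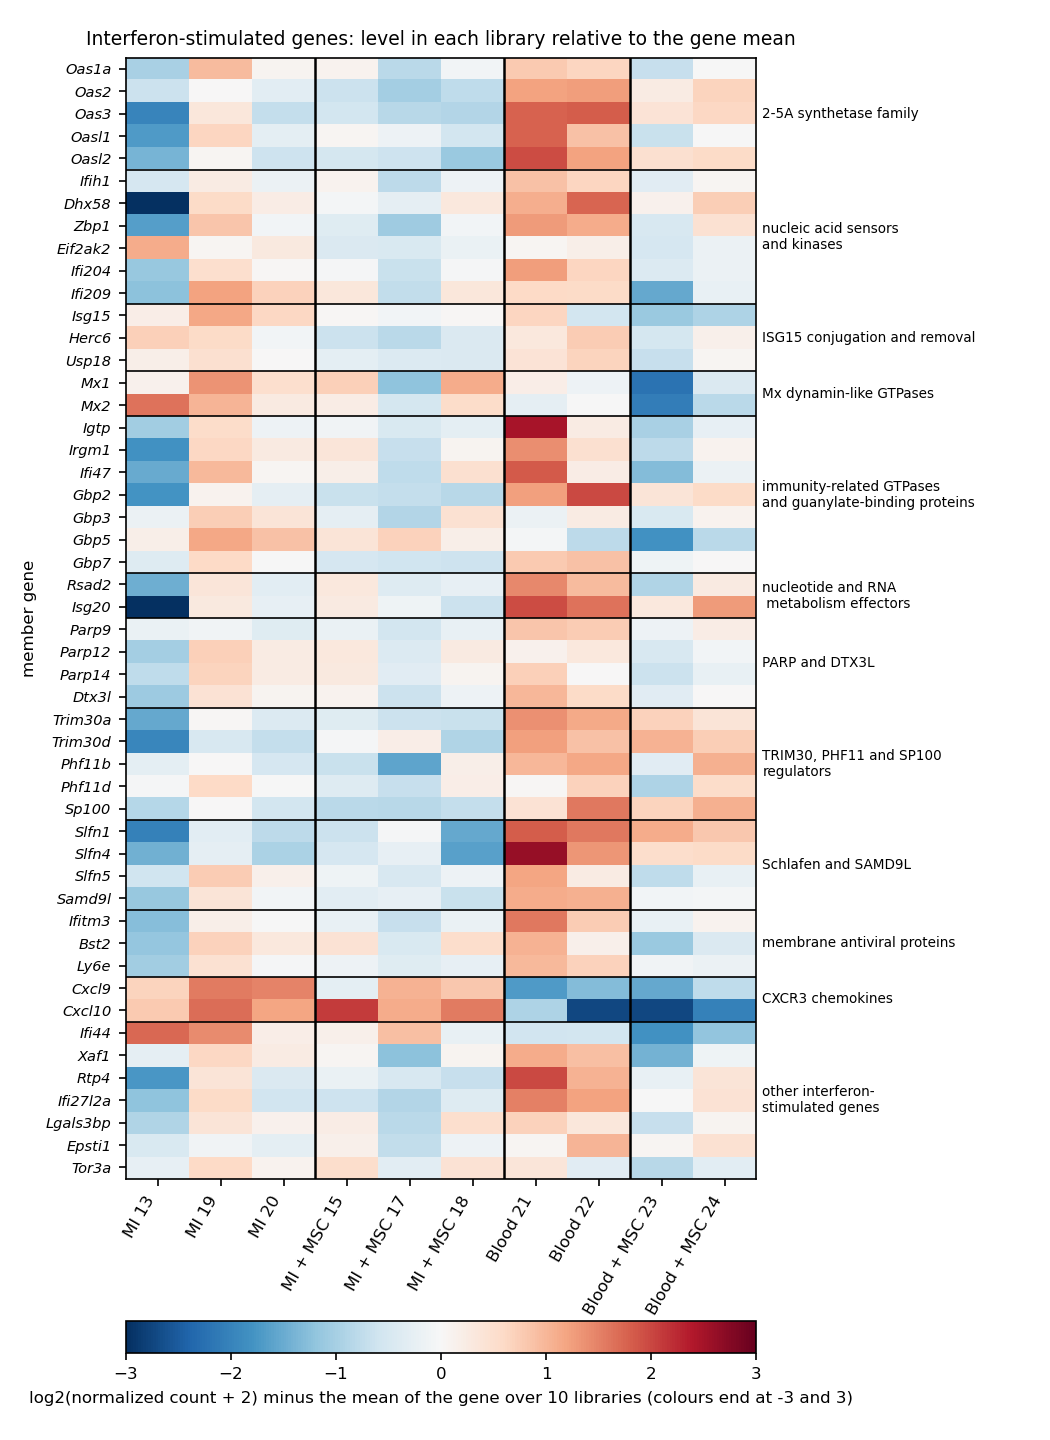
Level of each of the 50 members (rows, by role) in each library (columns), as log2(normalized count + 2) minus the mean of the gene over the 10 libraries. Most rows are red in Blood 21 and Blood 22 and pale or blue in the other libraries, whereas Cxcl9 and Cxcl10 are red in the heart and blue in blood, and Dhx58 and Isg20 are darkest in MI 13, where they had 0 reads.

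In blood, all 49 tested members had a lower fitted level in Blood + MSC than in Blood, yet none passed the test. The median log2 fold change of the members was -0.98, that is 1.97-fold lower, while the median of all 11549 tested genes was 0.11 and 41.7% of them lay below 0. The test was limma on log2(normalized count + 2), and a gene was called at a Benjamini-Hochberg adjusted p under 0.05 over all tested genes and a log2 fold change of 0.5 or more in size. It called 0 members and 0% of all tested genes in either direction, with a lowest adjusted p of 0.672. At an unadjusted p under 0.05, 19 members were lower and 0 were higher. The edgeR test on the recovered reads also called 0 members, with 23 at an unadjusted p under 0.05, and DESeq2 called 1, Igtp, with 26, against 1.52% of all genes called lower by DESeq2. For 41 of the 49 members both Blood + MSC libraries lay below both Blood libraries, as they did for 15.4% of all tested genes. For 0 members they lay above, against 21% of all tested genes. The ratio of group means, Blood over Blood + MSC, ranged from 1.12 to 5.03 with a median of 2.05, and it was over 2 for 26 members. With 2 libraries a group, nothing in the labels shows that libraries came from separate animals, so p-values measure the spread between these libraries.

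Leaving out any 1 of the 10 libraries kept the direction, as at least 46 of the members stayed below 0 when any library was left out. The median then ranged from -1.25 to -0.73. Without Blood replicate 22, limma called 2 members lower, Igtp and Isg15, named after their values were seen, against 3.4% of all tested genes. That fit left the shallow Blood 21 alone in its group, so its spread was assumed to be that of the other groups. Without Blood replicate 21 the median was -0.83 and 5 members had an unadjusted p under 0.05. In bulk RNA, fewer cells of a type cannot be told apart from less RNA per cell.

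The neutrophil markers stood lower beside the members in blood. The summed level of 13 neutrophil markers was 45727 and 53159 in Blood versus 24207 and 17229 with MSC, and 12 of the 13 had a log2 fold change below 0, with a median of -1.51 and 0 called. They were not alike, as Ly6g did not overlap between the groups, whereas Csf3r, the receptor for G-CSF, had 5695 and 9547 in Blood versus 7249 and 5757 after MSC, which overlapped. Summed platelet markers (8 genes) stood at 25986 in Blood 21 and 1115 in Blood 22, and at 699 and 594 with MSC, so that Blood 21 stood apart. Monocyte and macrophage markers (12 genes) summed to 22673 and 15015 in Blood versus 11169 and 13016 with MSC. Eosinophil and basophil markers (5 genes) stood higher without overlap, at 289.7 and 173 in Blood versus 667 and 425 with MSC. Divided by the neutrophil marker sum, a measure added after the data were seen, the member sum was 1.01 and 0.539 in Blood versus 0.645 and 1.03 with MSC. On that scale the groups overlapped, and the part of cell make-up in the difference was not tested.

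Among the 2-5A synthetases, which make the second messenger that activates RNase L, and their OAS-like relatives, all 5 members were lower in both Blood + MSC libraries. Oasl1, an OAS-like protein that restrains translation of Irf7, had 579 and 316 normalized counts without MSC and 106 and 169 with it. Its log2 fold change was -1.66 (SE 0.62), with an unadjusted p of 0.0208 and an adjusted p of 0.672. Oasl2, the highest of the family per kilobase, had 1802 and 1075 in Blood, compared with 649.6 and 698 with MSC, without overlap between the groups. The median over the family was -1.06, with a range from -1.66 to -0.77.

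The nucleic acid sensors and kinases, which recognise foreign RNA or DNA in the cytosol, were lower in both Blood + MSC libraries for all 6 members. Ifi204, a DNA sensor of the IFI200 family and the highest of this list per kilobase, had 1116 and 729.6 normalized counts in Blood versus 349 and 409 after MSC. This gave a log2 fold change of -1.25 (SE 0.50) with an adjusted p of 0.672. The smallest difference in this list was that of Eif2ak2, the double-stranded RNA kinase PKR, which had 63.6 and 68.9 without MSC and 42.3 and 53.8 with it. The list median was -1.09.

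For ISG15, a ubiquitin-like protein, its ligase HERC6 and its protease USP18, all 3 genes were lower in both Blood + MSC libraries. Herc6 had 56.5 and 78.0 in Blood, compared with 30.7 and 50.3 with MSC. Isg15 was scarce, with 5 and 22 reads in Blood versus 34 and 62 after MSC, that is 35.3 and 14.3 normalized counts without MSC and 8.93 and 10.4 with it. The Mx genes belong to the family of dynamin-like GTPases. Mx1 had 70.7 and 55.2 normalized counts in Blood, compared with 11.6 and 44.4 with MSC, and Blood + MSC 24 lay nearer to Blood than to Blood + MSC 23.

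The immunity-related GTPases and guanylate-binding proteins attack the membranes around intracellular pathogens and respond strongly to interferon gamma. Igtp (GRCm39 chr11:58089840-58098417), a GTPase of this family, had 883 and 187 normalized counts in Blood versus 79.9 and 133 after MSC. Blood 21 stood far above all others, and Blood 22 was closer to the Blood + MSC libraries than to Blood 21. The log2 fold change was -1.96 (SE 0.65), with an unadjusted p of 0.0113, and it was -0.85 without Blood replicate 21 and -3.07 without Blood replicate 22. The relatives Irgm1 and Ifi47 were also highest in Blood 21, with Irgm1 at 480.4 and 253 without MSC and 106 and 196 with it and Ifi47 at 360.3 and 116 in Blood, compared with 38.9 and 87.2 with MSC. Gbp7, by contrast, was even between the Blood libraries, with 212 and 225 in Blood versus 112 and 123 after MSC. This gave -0.88 (SE 0.34) on the log2 scale with an adjusted p of 0.672. Over the 7 genes the median was -1.12, and 6 had no overlap between the groups, the exception being Gbp3.

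Rsad2 (viperin), an enzyme that makes a chain-terminating nucleotide, had 1145 and 814 normalized counts without MSC and 225 and 510.3 with it. Its log2 fold change was -1.51 (SE 0.57), with an unadjusted p of 0.0226 and a 95% interval of -2.76 to -0.25. It was -0.92 without Blood + MSC replicate 23, the lower of the treated libraries. Isg20, an exonuclease, had 212 and 168 in Blood, compared with 66.7 and 131 with MSC. Of the PARP genes and Dtx3l, which modify proteins with ADP-ribose or ubiquitin, Parp9 had 226 and 212 in Blood versus 113 and 146 after MSC. Libraries of a group lay close together for Parp9, whose log2 fold change of -0.76 (SE 0.29) was smaller than that of Rsad2 but had a similar unadjusted p of 0.0214. Parp14, which acts on STAT6 signalling, had 615 and 376 without MSC and 237 and 320.4 with it. All 4 genes of that list were lower without overlap, with a median of -0.78.

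The TRIM30, PHF11 and SP100 genes, whose products act in the nucleus or restrain inflammatory signalling, had the smallest list median of the lists with more than 1 tested gene. Trim30a had 1971 and 1660.0 in Blood, compared with 1215 and 998 with MSC, and it was the 1 gene of the 5 whose groups did not overlap. The list median was -0.55, and Sp100, a nuclear body protein, had the log2 fold change nearest to 0 of all members at -0.13 (SE 0.41). The Schlafen genes and Samd9l, which control translation and growth, were lower without overlap for all 4. Slfn4 had 18017 and 7404 normalized counts in Blood versus 4267 and 4439 after MSC, and its log2 fold change was -1.41 (SE 0.68) with a 95% interval of -2.90 to 0.086. Blood 21 again was the highest. For Samd9l the Blood libraries were alike, at 1159 and 1125, as were the treated ones, at 507 and 509.8, and its log2 fold change was -1.16 (SE 0.45) with an adjusted p of 0.672.

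Of the membrane proteins that hinder the entry or release of viruses, Ly6e had 2466 and 2038 without MSC and 1172 and 1123 with it. Bst2 (tetherin) had 240.2 and 127 in Blood, compared with 52.0 and 84.1 with MSC, and Ifitm3 had 1943 and 1100.0 in Blood versus 558 and 704 after MSC. All 3 genes had no overlap between the groups, with a median of -1.22. The ligands of CXCR3, which draw in activated T cells, had few reads in blood. Cxcl10 had 2 and 4 reads without MSC and 10 and 33 with it, in libraries of unlike depth. In normalized counts it had 14.1 and 2.60 in Blood versus 2.63 and 5.55 with MSC, which overlapped. Its log2 fold change was -0.54, with Blood 22 lower than both treated libraries. Cxcl9 had 0 and 1 reads in Blood, compared with 1 and 11 with MSC. Among the other members, Xaf1, a partner of the apoptosis inhibitor XIAP, had the lowest unadjusted p of all, 0.00669. It had 113 and 96.2 normalized counts in Blood versus 17.9 and 46.1 after MSC, and its log2 fold change was -1.78 (SE 0.54) with an adjusted p of 0.672. Without Blood + MSC replicate 23 it was -1.14. Ifi27l2a, a small membrane protein and the highest of this list per kilobase, had 904 and 727 without MSC and 310.5 and 426 with it, without overlap, and over the 7 genes of the list the median was -0.94.

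Further members had the same direction. Dhx58 and Ifih1, which sense viral RNA, had log2 fold changes of -0.98 (SE 1.24) and -0.90 (SE 0.37), and Zbp1, a sensor of Z-form nucleic acid that triggers necroptosis, of -1.20 (SE 0.66). Ifi209 of the IFI200 family stood at -1.46 (SE 0.70), Dtx3l, the partner of PARP9, at -0.95 (SE 0.47) and Parp12 at -0.49 (SE 0.50). Slfn5 stood at -1.21 (SE 0.50), Phf11b at -0.72 (SE 0.56) and Phf11d at -0.55 (SE 0.53). Of these, the groups overlapped for the PHF11 genes alone. Lgals3bp, a secreted binder of galectin 3, stood at -0.82 (SE 0.52) without overlap, while Epsti1 at -0.27 (SE 0.39) and Tor3a at -0.58 (SE 0.41) overlapped.

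**Figure D2:**
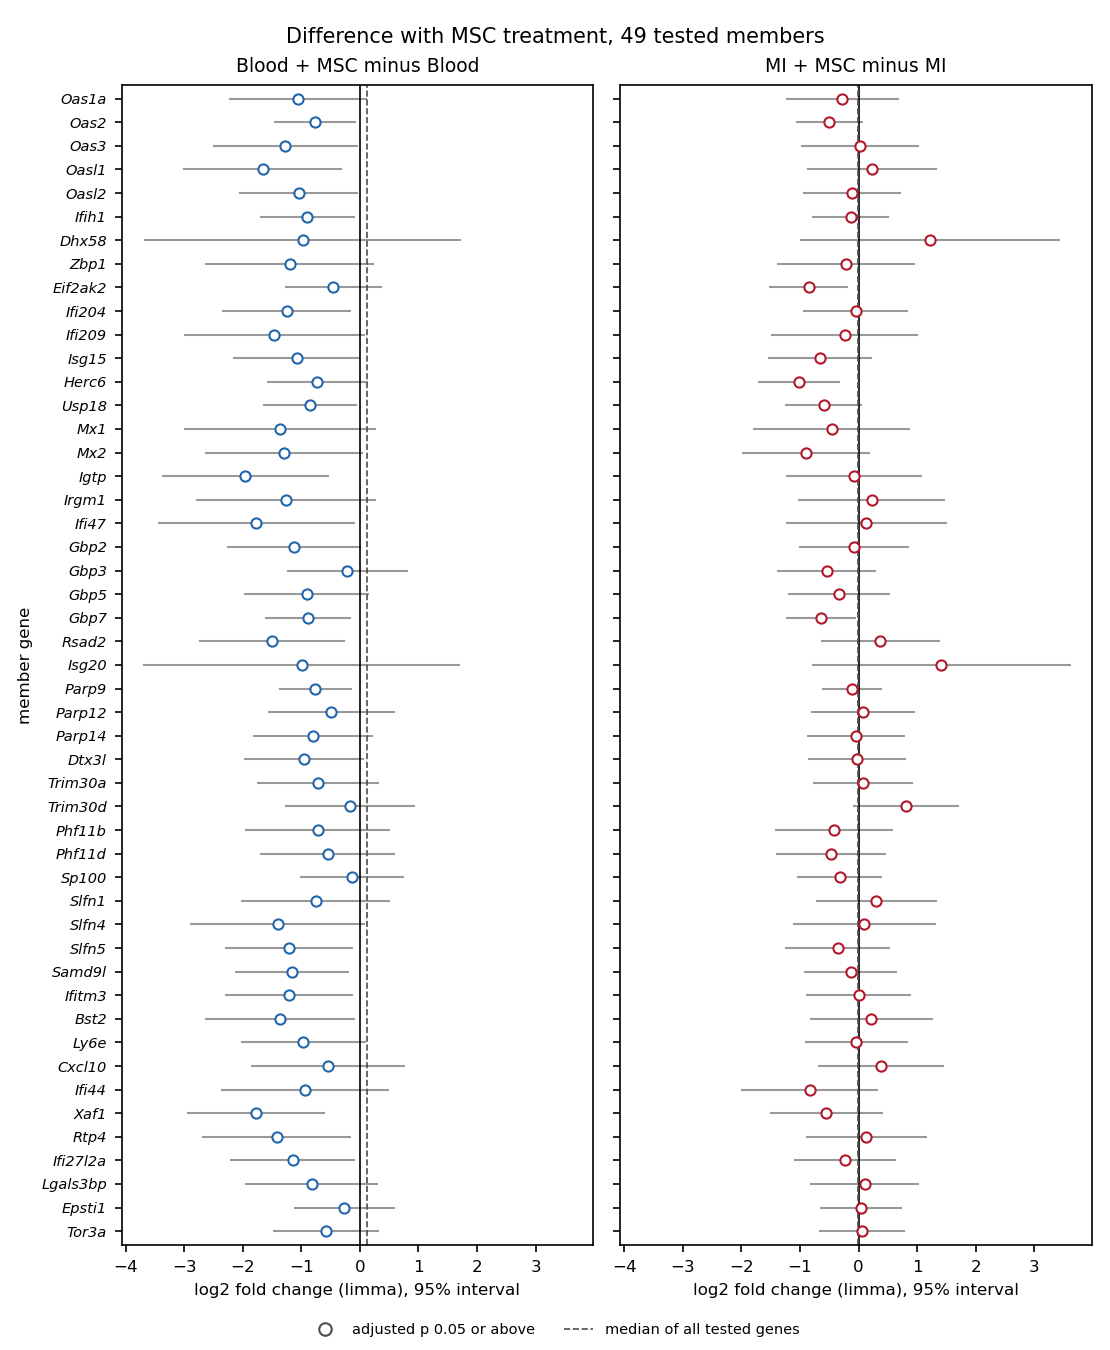
Fitted log2 fold change of each tested member (points) with its 95% interval (lines), for Blood + MSC minus Blood on the left and MI + MSC minus MI on the right. All 49 points on the left lie below 0 and all are open, as none was called, whereas on the right 30 lie below 0 and 19 above.

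In the heart, the number of members below 0 with MSC treatment depended on the fit. By limma, of the 49 members, 30 were below 0 and 19 above in MI + MSC relative to MI, and the median log2 fold change was -0.080 against -0.015 over all tested genes. limma called 0 members and 0% of all tested genes in either direction, and the lowest adjusted p of a member was 0.53. At an unadjusted p under 0.05, 3 members were lower and 0 higher, whereas edgeR and DESeq2 each called 0 members, with 4 lower at an unadjusted p under 0.05. By both of these tests 40 of the 49 members were below 0, with a median of -0.23 by edgeR and -0.26 by DESeq2. For 5 of the 49 members, Isg15, Herc6, Usp18, Eif2ak2 and Gbp7, all MI + MSC libraries lay below all MI libraries. That share was close to the 9.6% of all tested genes for which this held. For 0 members did all MI + MSC libraries lie above, against 7.05% of all genes.

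The 3 genes of the ISG15 system were among these 5. Isg15 had 25.2, 50.9 and 34.5 normalized counts without MSC and 22.3, 20.7 and 22.4 with it, with a log2 fold change of -0.66 (SE 0.40). Herc6 had 75.6, 68.2 and 42.7 in MI, compared with 28.4, 25.3 and 33.2 with MSC, and its log2 fold change of -1.02 (SE 0.32) had the lowest unadjusted p of the comparison, 0.00838, with an adjusted p of 0.53. Usp18 had 42.0, 52.9 and 37.1 in MI versus 29.7, 27.6 and 27.1 after MSC, a log2 fold change of -0.60 (SE 0.30). The MI 13 values of these genes rest on few reads, namely 3 for Isg15, 9 for Herc6 and 5 for Usp18.

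Eif2ak2 had 134, 63.4 and 75.1 normalized counts without MSC and 44.6, 43.6 and 52.9 with it. The log2 fold change was -0.85 (SE 0.31), with an adjusted p of 0.58, and MI 13 was the highest library. Gbp7 had 92.4, 186 and 121 in MI, compared with 85.8, 80.4 and 78.6 with MSC, with a log2 fold change of -0.64 (SE 0.27) and an unadjusted p of 0.0392. In Oas2, the values were 134, 214 and 171 against 135, 103 and 124, and the single MI + MSC value above an MI one was that of MI + MSC 15. Mx2 was spread from 21.6 to 58.8 in MI and from 11.5 to 26.4 in MI + MSC. Trim30d was the 1 gene among the 8 with the lowest p to be higher, with 109, 305 and 261 in MI versus 418, 496 and 229.8 after MSC, a log2 fold change of 0.81 (SE 0.41) and an adjusted p of 0.641.

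The limma median in the heart moved with single libraries. Without MI replicate 13, the shallowest library, 47 of the 49 members were below 0 and the median was -0.52. Without MI replicate 19, which had the highest member sum of the group, 17 were below 0 and the median was 0.27. Without MI + MSC replicate 17 the median was 0.023, also above 0. The 2 members with 0 reads in MI 13, Isg20 and Dhx58, had the largest positive log2 fold changes of the comparison, 1.41 (SE 1.01) and 1.22 (SE 1.01). Within MI, 45 of the 49 members were higher in MI 19 than in MI 13 and 48 were lower in MI 20 than in MI 19. When libraries were weighted by their quality, limma called 7 members lower, namely Herc6, Isg15, Gbp7, Gbp3, Gbp2, Sp100 and Oas2, named after their values were seen, against 6.72% of all tested genes. With these weights 46 members were below 0, with a median of -0.55. Cardiomyocyte markers summed to 22641, 24249.7 and 8095 in MI versus 3138, 4720.4 and 12602 with MSC, and endothelial markers (9 genes) to 2311, 2124 and 2339 in MI versus 485, 735 and 941 with MSC. Neutrophil markers summed to 2790.3, 8586 and 6521 in MI, and to 8819.6, 14278 and 3270.3 with MSC, which overlapped. So did monocyte and macrophage markers (12 genes), at 4899.8, 15275 and 13459 in MI versus 18440, 11085 and 19571 with MSC. Platelet markers summed to 471, 649 and 624 in MI versus 1767, 859 and 1239 with MSC, and eosinophil and basophil markers (5 genes) to 92.4, 168 and 150.3 in MI versus 437, 537 and 171 with MSC, both without overlap. The part of these cells in the member values was not tested.

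The interaction asks whether the MSC difference in the heart differed from that in blood. The fitted difference, heart minus blood, was above 0 for 45 of the 49 members with a median of 0.92, against -0.12 over all tested genes. limma called 0 members and 0% of all tested genes, and 3 members had an unadjusted p under 0.05, Rsad2, Oasl1 and Igtp. Both edgeR and DESeq2 called 0 members, with 2 and 6 at an unadjusted p under 0.05. Rsad2 had an interaction of 1.88 (SE 0.74), with an unadjusted p of 0.0264 and an adjusted p of 0.63. Its heart values were 151, 546 and 337 without MSC and 531, 321 and 357 with it, which overlapped, beside the blood values given above. For Oasl1 the interaction was 1.89 (SE 0.80), with heart values of 50.4, 268 and 139 in MI, compared with 177, 152 and 115 with MSC.

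The Igtp interaction was 1.89 (SE 0.84) and moved with the Blood libraries, to 0.77 without Blood replicate 21 and to 3.00 without Blood replicate 22. Bst2 followed with 1.59 (SE 0.76) and Rtp4, a chaperone of receptors with antiviral action, with 1.56 (SE 0.75), each with an adjusted p of 0.63. A difference of the MSC effect between blood and heart was not shown for any member by limma, edgeR or DESeq2 with all libraries.

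In untreated animals, 40 of the 49 members had a lower fitted level in the heart than in blood. limma called 17 members lower in MI than in Blood, against 13.5% of all tested genes, and 2 higher, against 21.2%. The median log2 fold change was -1.02 against 0.15 over all tested genes. All MI libraries lay below both Blood libraries for 27 members, which 23.6% of all tested genes did, and above for 4 members, which 31.6% did. MI minus Blood shares its libraries with both MSC comparisons, so the values stand side by side and are not separate evidence. Beside these tissue differences, the neutrophil marker sum was at most 14278 in the heart and at least 17229 in blood. The monocyte and macrophage marker sum ran from 4899.8 to 19571 in the heart and from 11169 to 22673 in blood. It lay above the neutrophil sum in every cardiac library but MI + MSC 17, and under it in every blood library. Divided by the neutrophil marker sum, a ratio chosen after the data were seen, the member sum was 2.39, 2.06 and 1.86 in MI. In Blood this ratio was 1.01 and 0.539, so that MI lay above Blood. The part of either cell type in the member values was not tested.

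Cxcl10 (GRCm39 chr5:92494497-92496748) was the member most enriched in the heart. In MI it had 50.4, 96.1 and 67.4 normalized counts, and with MSC 129.8, 64.3 and 88.1. Blood had 14.1 and 2.60, and after MSC 2.63 and 5.55, so that no cardiac library overlapped with blood. Its log2 fold change in MI relative to Blood was 3.04 (SE 0.55) with an adjusted p of 0.00233, and with single libraries left out it ranged from 2.14 without Blood replicate 22 to 3.95 without Blood replicate 21. Cxcl9, the other CXCR3 ligand, was not tested. Its reads were 1, 18 and 32 in MI versus 5, 5 and 14 after MSC, beside the few reads in blood. These libraries differed in depth. Ifi44, a cytosolic protein of poorly known action, was the second member called higher, at 42.0, 33.6 and 13.4 in MI and 7.07 and 7.15 in Blood. The change of 1.67 (SE 0.59) on the log2 scale had an adjusted p of 0.0488, close to the threshold, and 17 of the 19 alternatives lost the call, among them leaving out MI replicate 13 or 19 and either Blood library.

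The most negative log2 fold change was that of Isg20, whose size rested on MI 13, where it had 0 reads. Isg20 had 0, 65.4 and 44.3 normalized counts in MI and 212 and 168 in Blood. Its log2 fold change was -3.37 (SE 1.13) with an adjusted p of 0.0385, and -1.77 with an adjusted p of 0.0115 without MI replicate 13, while without MI replicate 19 it was -4.31. Of its 20 alternatives, 10 lost the call, among them leaving out either Blood library.

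Slfn4 and Slfn1 followed. Slfn4 had 1084, 2454 and 1533 normalized counts in MI beside 18017 and 7404 in Blood, a log2 fold change of -2.85 (SE 0.62) with an adjusted p of 0.00606. Without Blood replicate 21 the change was -2.21, and without Blood replicate 22 it was -3.49. Slfn1 had 159.7, 528 and 379 in MI and 2332 and 1984 in Blood, and fell by 2.75 on the log2 scale (SE 0.53, adjusted p = 0.00325). Slfn1 kept its call under all 20 alternatives, whereas Slfn4 lost it in 2, with only the 2 groups compared and with libraries weighted by quality. With Samd9l, 3 of the 4 genes of this list were called lower.

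Among the 2-5A synthetases, 4 of 5 were called lower. Oas3 (GRCm39 chr5:120891163-120915729), a member of this family, had 75.6, 387 and 186 normalized counts in MI and 1053 and 1079 in Blood, without overlap. It fell by 2.58 on the log2 scale (SE 0.51, adjusted p = 0.00389), and without MI replicate 13 by 1.98. Oasl2 had 176, 486 and 304 in MI, and fell by 2.22 (SE 0.42, adjusted p = 0.0032). Both calls were lost with libraries weighted by quality. Oas1a, the exception in this family, had 58.8, 229 and 125 in MI and 205 and 185 in Blood, which overlapped.

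Gbp2, a guanylate-binding protein, had 33.6, 132 and 100.4 normalized counts in MI and 289.7 and 486 in Blood. It fell by 2.26 on the log2 scale (SE 0.48, adjusted p = 0.00517), while the other 6 genes of its list were not called and Gbp5 lay above 0 at 1.16 (SE 0.44). Trim30d had 109, 305 and 261 in MI and 1003 and 795 in Blood, with a log2 fold change of -2.11 (SE 0.46) and an adjusted p of 0.00621, a call that was lost with libraries weighted by quality. Rtp4 had 67.2, 299.9 and 171 in MI and 911 and 474 in Blood, and its log2 fold change of -2.10 (SE 0.53) was called with an adjusted p of 0.0119 and lost in 4 of 20 alternatives, among them leaving out Blood replicate 21 or both shallow libraries. The other 9 members called lower had log2 fold changes between -1.89 for Trim30a and -1.02 for Parp9. No gene of the sensor, ISG15 or Mx lists was called, and both Mx genes lay above 0.

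In treated animals, limma called 2 members lower in MI + MSC than in Blood + MSC, against 5.85% of all tested genes, and 2 higher, against 8.23%, and the median log2 fold change was -0.064 against 0.086 over all tested genes. All MI + MSC libraries lay below both Blood + MSC libraries for 14 members, against 29.7% of all tested genes, and above for 6, against 33.8%. Cxcl10 was 3.97 (SE 0.55) on the log2 scale, with an adjusted p of 0.00135, and kept its call under every alternative run. Gbp5, which takes part in inflammasome activation, had 39.2, 48.2 and 33.2 normalized counts in MI + MSC and 6.83 and 15.8 in Blood + MSC. Its log2 fold change was 1.74 (SE 0.44) with an adjusted p of 0.0255, and the call was lost without MI + MSC replicate 15, 17 or 18 or Blood + MSC replicate 23.

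The members called lower in treated animals were Sp100 and Oas2. Sp100 had 95.3, 94.1 and 101 in MI + MSC and 268 and 354 in Blood + MSC, a log2 fold change of -1.65 (SE 0.37) with an adjusted p of 0.0148. Oas2 had 135, 103 and 124 and 253 and 338, a log2 fold change of -1.27 (SE 0.29) with an adjusted p of 0.0157. Neither call held without Blood + MSC replicate 23 or 24. The number of calls depended on the fit. In treated animals edgeR called 5 members higher, against 16.4% of all tested genes, and 7 lower, against 15.6%. In untreated animals it called 21 lower, against 17.8%, and limma without Blood replicate 21 called 11, against 14%. With only the 2 groups compared, limma called 5 members higher and 9 lower in treated animals, against 18.8% and 15.9% of all tested genes. In untreated animals that fit called 1 higher and 7 lower, against 9.45% and 5.27%, so that which animals had more calls was not settled. A difference between the tissue effects of treated and untreated animals is the same term as the interaction above, for which 0 members were called.

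**Figure D3:**
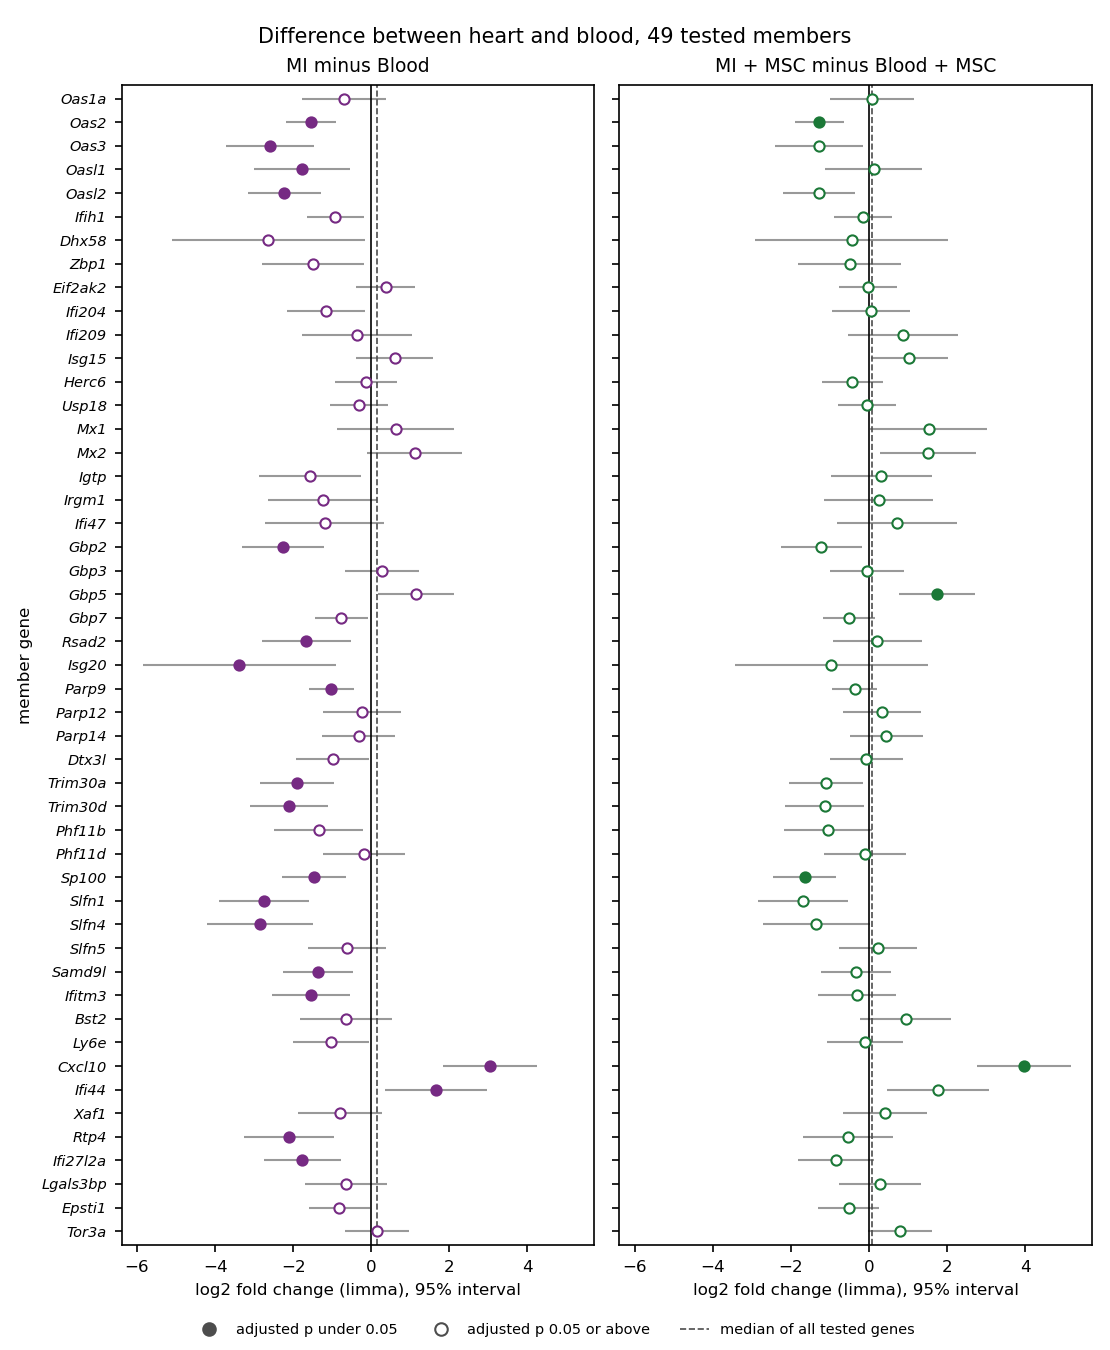
Fitted log2 fold change of each tested member (points) with its 95% interval (lines), for MI minus Blood on the left and MI + MSC minus Blood + MSC on the right, filled where called. On the left 17 filled points lie below 0 and 2 above, and on the right 2 lie below and 2 above, with Cxcl10 farthest to the right in both panels.

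The genes through which interferons signal were read beside the members. Of 43 such genes chosen by function, 33 had a row and all 33 were tested, while the interferon ligands and Mavs were not analysed here. In Blood + MSC relative to Blood, 0 of the 33 were called by limma and 4 had an unadjusted p under 0.05, and their median log2 fold change was 0.030. Among the 6 receptor genes, 3 lay below 0, and the log2 fold change ran from -1.12 (SE 0.61) for Ifnlr1, a chain of the type III interferon receptor, to 0.24 (SE 0.44) for Ifnar1, a chain of the type I receptor. Jak1 stood at 0.052 and Tyk2 at 0.049. The transcription factors Irf7, Irf9 and Stat2 lay below 0. Irf7, the factor that amplifies type I interferon production, had 650.0 and 530.2 normalized counts in Blood versus 182 and 241 after MSC, a log2 fold change of -1.48 (SE 0.44) with an adjusted p of 0.672. Irf9 had 480.4 and 434 in Blood, compared with 235 and 322 with MSC and Stat2 had 184 and 142 in Blood versus 86.4 and 127 after MSC, both without overlap between the groups.

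In the heart, limma again called 0 of the 33 genes with MSC, with 5 at an unadjusted p under 0.05, and 24 were above 0. Irf7 there had 118, 335 and 208 without MSC and 239, 158 and 214 with it, which overlapped. For 5 of the 33 genes all MI + MSC libraries lay above all MI libraries, against 7.05% of all tested genes. For 2 of the 33 they lay below, against 9.6%. Socs3 and Socs1, which dampen JAK signalling, were among those above. Socs3 had 538, 905 and 1088 in MI against 2048, 2418 and 1138 with MSC. Socs1 had 8.40, 27.9 and 28.3 against 57.5, 66.6 and 31.2, and its MI 13 value was 1 read. Neither Socs3 nor Socs1 was called, with adjusted p of 0.602 and 0.587. Between MI and Blood, 11 of the 33 were called lower, against 13.5% of all tested genes. Among them were Irf7 at -1.53 (SE 0.40), Irf9 at -1.52 (SE 0.28) and Jak1 at -1.53 (SE 0.35). Called higher in MI were 3 of the 33, against 21.2% of all tested genes. These were sensors of nucleic acid, Cgas at 1.64 (SE 0.34), Tlr3 at 1.35 (SE 0.39) and Tlr9 at 3.49 (SE 0.62).

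**Figure D4:**
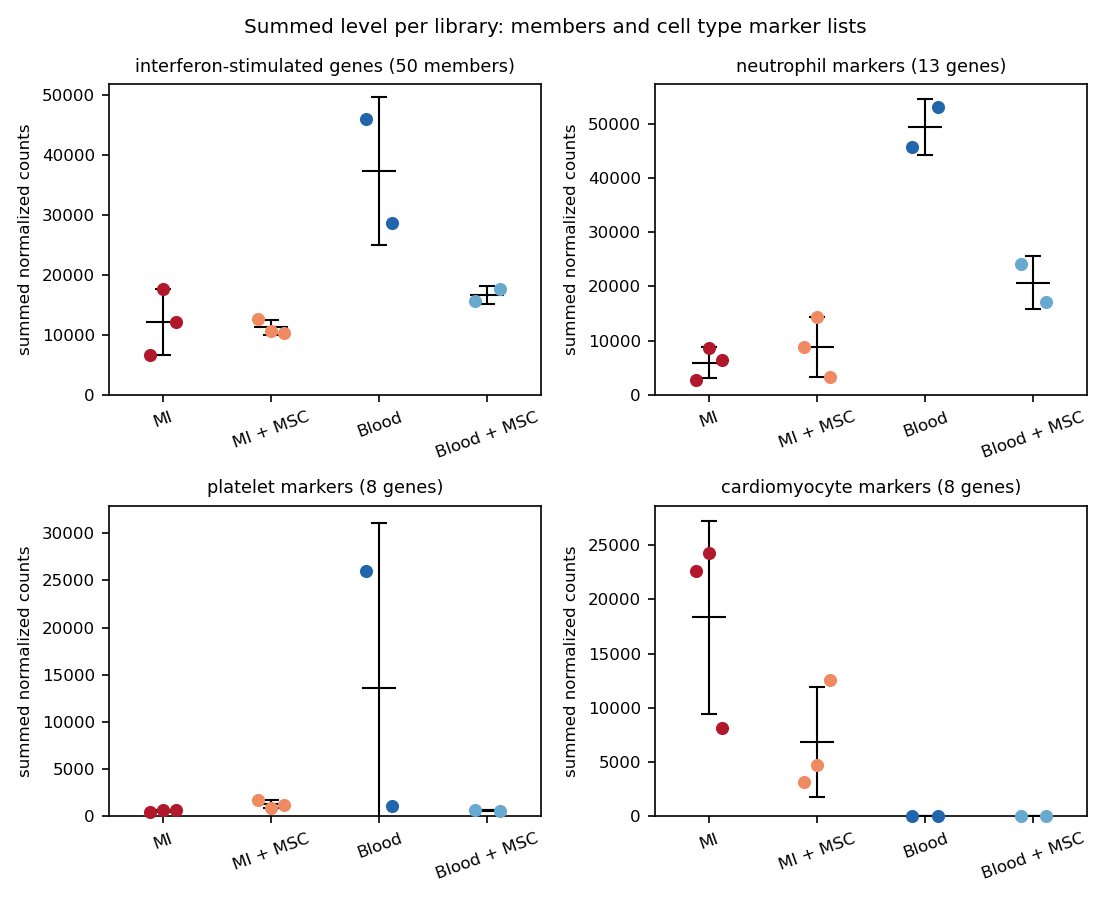
Summed normalized counts per library (points) with mean and SD (lines) for the 50 members and for the neutrophil, platelet and cardiomyocyte marker lists, by group, each on its own linear axis from 0 (the lower end of the platelet SD in Blood lies under 0 and is cut). The members and the neutrophil markers are both highest in Blood, a single Blood library carries most of the platelet signal, and cardiomyocyte markers are seen in the cardiac libraries.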

How the data were processed

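Total RNA of the enriched cells was made into stranded libraries after ribosomal depletion. The authors trimmed reads with Trimmomatic, removed duplicates with Picard, aligned with STAR to GRCm39 and counted with featureCounts by strand. They filtered out reads of mitochondrial regions, whose percentage they describe as relatively high. Recovered reads and shares of them are those left after this step. The deposited signal is DESeq2-normalized counts, and a table deposited as raw counts holds the same 281850 values. Whole reads were recovered from the steps of these values (100% of values whole within 0.001). Gene names came from GENCODE vM39 for 27906 of 28185 identifiers.

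The test was limma 3.58.1 with an intensity trend in R 4.3.3 on log2(normalized count + 2), with 1 mean per group over all 10 libraries, for genes with a mean of at least 10. Fold changes refer to this scale unless edgeR or DESeq2 is named, and the added 2 shrinks those of low genes. A library with 0 reads can instead enlarge a change, as MI 13 did for Isg20. Calls needed an adjusted p under 0.05 and a log2 fold change of 0.5 or more in size, and for the interaction the adjusted p alone. It called 2452 genes higher and 1556 lower in MI than in Blood. Count tests on the recovered reads with edgeR 4.0.16 and DESeq2 1.42.0 were alternatives, and edgeR called 2044 higher and 2060 lower. Scripts were tested on simulated data and used Python 3.11.15, numpy 2.4.6, pandas 2.3.3, scipy 1.17.1 and matplotlib 3.10.9.

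Members were described with all values where they were among the 8 called with the largest change in each direction (tissues), the 8 with the lowest unadjusted p (MSC), the 5 with the lowest unadjusted p (interaction) or the highest of their list by mean count. The members and lists were chosen with earlier results of these data known.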

Additional observations from a re-analysis of the deposited data

How the results depend on the processing

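No paired analysis was possible because the groups share no replicate numbers in the labels. The paper states that blood was drawn before the hearts were harvested, so heart and blood libraries may share mice. The tests of heart against blood and the interaction treated all libraries as independent. No direction of a reported median or called member was reversed when the scale, filter, test or samples were varied, except that the median of MI + MSC minus MI ran from -0.52 to 0.27 and that of MI + MSC minus Blood + MSC from -0.34 to 0.14 as each library was left out. A group left with 1 library was assumed to vary like the others. The median of MI + MSC minus MI was -0.23 by edgeR, -0.26 by DESeq2 and -0.55 under sample quality weights. For MI minus Blood that range was -1.30 to -0.62, and for the interaction 0.52 to 1.25. With MSC, members called lower in the heart numbered 7 under sample quality weights, and in blood 1 under DESeq2 and 0 to 2 as each library was left out. The count with an interaction was then 0 to 1. In MI minus Blood, members called higher numbered 1 under a pseudocount of 1, a mean of at least 20, TMM scaling, only the 2 groups compared or weights, 3 without both shallow libraries and 1 to 2 with libraries left out. Those called lower numbered 7 with only the 2 groups, 3 under weights and 11 to 25 with libraries left out, and the median was -0.49 under weights and -0.48 without both shallow libraries. In MI + MSC minus Blood + MSC, members called higher and lower numbered 5 and 7 by edgeR, 5 and 8 by DESeq2, 5 and 9 with only the 2 groups, 9 and 9 under weights and 6 and 10 without both shallow libraries, and 1 to 3 and 0 to 8 with libraries left out. The ratio of summed levels, Blood + MSC to Blood, was 0.446, and 0.362 to 0.581 with libraries left out. That of MI + MSC to Blood + MSC was 0.767 without Slfn4. The cause was not tested. Depth limits MI 13 most, where 5 members had at most 3 reads.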

Other observations

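Other marker lists were read in the same libraries as values. T and NK cell markers (7 genes) summed to 28.3 and 71.5 normalized counts in Blood and 8.93 and 36.7 with MSC, and lay between 14.9 and 101 over the cardiac libraries. B cell markers (5 genes) summed to 28.3 and 318 in Blood and 86.7 and 382 with MSC, and to 67.2, 52.9 and 41.2 in MI and 68.3, 39.0 and 72.5 with MSC. Dendritic cell markers (6 genes, plasmacytoid and classical) summed to 77.7 and 127 in Blood and 120.0 and 144 with MSC. In the heart they summed to 739.6, 417 and 486 in MI and 235, 285 and 315 with MSC. Of these 6 genes, 3 reached the mean needed for testing. Fibroblast markers (7 genes) summed to 1000.1, 1457 and 1399 in MI and 1112, 967 and 1669 with MSC. Their part in the member values was not tested.

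The member sum divided by the neutrophil marker sum was 2.39, 2.06 and 1.86 in MI and, with MSC, 1.44, 0.752 and 3.18, beside the blood ratios given above. This ratio was chosen after the data were seen, and MI + MSC spanned both the lowest and the highest cardiac library.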
